A study of Homo sapiens with 2 samples.

Results

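The genes described here are 43 interleukins, chemokines, related cytokines and cytokine receptors, chosen by name from the genes printed on a human 1-colour Agilent microarray. They are 43 of the 30484 gene names on the array and are covered by 66 of its 41000 probes, or 111 spots. Their products are 29 secreted ligands (with the receptor antagonist IL1RN counted among them) and 14 receptor chains, and 25 of the genes have a single probe. The study compared SAS cells, a squamous carcinoma line from a human tongue tumor, with eSAS cells, the population that remained after SAS spheroids had repeatedly been trapped by size on the mesh of the Spheroid Catch tool. Both populations carry the same line's background, the labels describe the same serum-containing medium for both, and no agent was added. By the study's account, cells of both populations were in log growth phase when the RNA was extracted. The labels do not say whether the RNA came from adherent cells or from spheroids, nor whether eSAS is a single clone. Total RNA of each population was hybridised to 1 array, so the comparison had no replicate, could not be tested and comes without p-values. In such bulk RNA, a larger share of cells that make a transcript and more transcript per cell cannot be told apart.

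Interleukins and chemokines are secreted proteins by which cells signal to each other and attract leukocytes. Many of their genes are switched on by NF-kappa-B, a transcription factor that IL-1 receptors and Toll-like receptors activate, and cytokines of the IL-6 type signal through JAK kinases and STAT3. Squamous carcinoma cells are known to release such factors and to carry many of the receptors themselves.

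The start regions of 7 members are shown because several chemokine genes carry the same NF-kappa-B motif and yet differed in their ratio between the arrays, as described with the chemokines. The sequences are those of RefSeq on GRCh38.p14, 120 bases each, written 5′ to 3′ on the strand of the gene, and each ends just before the listed start. CXCL1 is shown at chr4:73869273-73869392 on the plus strand, CXCL2 at chr4:74099196-74099315 on the minus strand, CXCL3 at chr4:74038690-74038809 on the minus strand and CXCL5 at chr4:73998678-73998797 on the minus strand. IL6 lies at chr7:22727080-22727199, CCL20 at chr2:227813722-227813841 and IL32, the first of its 2 listed starts, at chr16:3065283-3065402, all on the plus strand. Capitals mark the bases that match the NF-kappa-B consensus on either strand, with overlapping matches run together.
CXCL1: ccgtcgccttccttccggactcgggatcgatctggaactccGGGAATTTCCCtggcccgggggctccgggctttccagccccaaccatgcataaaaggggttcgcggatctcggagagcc
CXCL2: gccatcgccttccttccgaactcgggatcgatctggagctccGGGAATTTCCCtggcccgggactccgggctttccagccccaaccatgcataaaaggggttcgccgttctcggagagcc
CXCL3: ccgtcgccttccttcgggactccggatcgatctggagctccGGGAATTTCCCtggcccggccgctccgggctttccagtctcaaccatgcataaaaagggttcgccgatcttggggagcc
CXCL5: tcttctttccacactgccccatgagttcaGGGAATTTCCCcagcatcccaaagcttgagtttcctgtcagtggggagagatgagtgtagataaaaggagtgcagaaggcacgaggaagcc
IL6: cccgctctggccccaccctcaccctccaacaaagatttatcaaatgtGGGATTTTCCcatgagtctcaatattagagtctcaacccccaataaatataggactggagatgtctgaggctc
CCL20: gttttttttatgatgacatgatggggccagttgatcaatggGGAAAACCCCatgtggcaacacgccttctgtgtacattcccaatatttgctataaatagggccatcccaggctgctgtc
IL32: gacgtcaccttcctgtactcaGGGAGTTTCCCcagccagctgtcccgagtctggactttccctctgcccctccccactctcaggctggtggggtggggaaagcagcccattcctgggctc

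GGGAATTTCC, the letters in CXCL1, was searched on both strands of the 250 bases before each start, for which 35 members had a sequence. It occurred in 5 of these members, CXCL1, CXCL2, CXCL3, CXCL5 and CXCL6. The match in CXCL1 was fixed in advance, because the letters were read from that gene. Of all 35116 start regions 50 held it (0.142%), and of all genes with such a region 0.176%. These 5 genes are close paralogs in 1 cluster on chromosome 4, and the shown windows of CXCL1 and CXCL3 are the same at 109 of 120 positions, so the matches are not independent. The related GGGATTTTCC was read from IL6 itself, so its match there was fixed in advance. Among the members it occurred in IL6 alone, and 0.0883% of all start regions held it (0.114% of genes). The broader NF-kappa-B consensus, which takes in both of these motifs, was met by 14 of the 35 members, or 14 of their 49 start regions. A gene with several starts counts once if any of them matches, and on that count the share of all 27305 genes was 11.8%, against 9.96% of single start regions. Members with a match had log2 ratios from 2.55 (IL32) to -0.55 (IL1R2). The AP-1 motif TGANTCA was found in 7 members, against 8.06% of all genes, and in 8 of the 49 member start regions, against 6.57% of all. The STAT motif TTCCNGGAA was found in 0 members, against 1.21% of all genes and 0.968% of start regions. A match describes these letters only and does not show that a factor binds.

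The deposited processed signal is a background-corrected spot intensity without scaling between arrays. The ratios below are on the log2 scale, eSAS over SAS, after each array was set relative to its 75th percentile, a signal of 1242 for SAS and 1196 for eSAS. Signals are printed unscaled. The scanner software rated 69.4% of spots in SAS and 67.5% in eSAS as well above background, and 0 as saturated. The ratios of replicate spots had an SD of 0.078 within a probe (211 probes), and the software's own error of a single bright probe came to about 0.20 on the log2 scale. Both are technical and leave out the variation between cultures. The squamous markers were present, with KRT18 (a simple epithelial keratin) at 149599 in SAS and 165171 in eSAS, but 8 of 11 measured markers had a ratio below 1 and the median log2 ratio of the 11 was -0.40, beside -0.0012 for all genes. Of these, KRT5, SFN and PKP1 were at least 1.5-fold lower in eSAS, and CDH1, the cadherin of epithelial junctions, had a log2 ratio of -0.48. Of 14 leukocyte markers, 11 were not well above background on either array, including PTPRC, CD3E and ITGAM. The other 3 were CSF1R, CD68 and CD14, whose log2 ratios lay between -0.02 and 0.17. Of 11 fibroblast and endothelial markers, 4 stood above background in SAS, in eSAS or in both. LUM, an extracellular matrix protein, had a signal of 3.21 in SAS and 29.6 in eSAS, at least 2.40-fold higher. The others went the other way. COL1A1 (15.2 in SAS and 5.28 in eSAS) and CDH5 (17.0 and 6.88) were well above background in SAS only, and VWF had a log2 ratio of -0.10. The part of these marker differences in the results below was not tested. In array rows 450 to 510 lay 15 of the 111 member spots.

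Among the 43 members, 35 were measured on both arrays, 21 ligands and 14 receptors, and 2 ligands (CCL2 and CXCL14) were well above background on 1 array. The remaining 6 ligands (IL8, IL20, CSF3, CXCL6, CCL5 and CCL26) were not well above background on either array. A ratio or a bound was available for 36 members. In eSAS, 4 of these 36 were at least 2-fold higher (IL32, IL24, CCL20 and, as a bound, CCL2), against 2.02% of the 20734 genes with a value. At least 2-fold lower were 0 of 36 members, against 2.16% of all genes. At the smaller limit of 1.5-fold, 7 members were higher (these 4 with IL18, IL6 and CXCL1), against 4.67% of all genes, and 3 were lower (IL13RA1, IL1RAP and IL7R), against 6.39%. The 7 were all ligands and the 3 were all receptors. Of the lower 3, IL7R fell short of 1.5-fold with marked spots kept (log2 ratio -0.583) and had no value without rows 450 to 510, and IL1RAP fell short without background correction (-0.55). Under normexp fitted without the spots of marked local background, both fell short, IL1RAP at -0.54 and IL7R at -0.58. Of the higher 7, CCL2 fell short without background correction (0.39) and under that normexp fit (0.30 with mean and 0.40 with median pixels). CCL20 fell short under that fit with median pixels (0.51). IL18, IL6 and CXCL1 fell short under normexp fitted on all spots, as given below. Of the 35 members measured on both arrays, 26 lay within 1.5-fold and 32 within 2-fold. At least 2-fold higher were 3 of these members and lower 0, against 196 and 266 of all 19467 genes measured on both arrays. The log2 ratios of those genes had their 5th percentile at -0.58 and their 95th at 0.46.

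**Figure D1:**
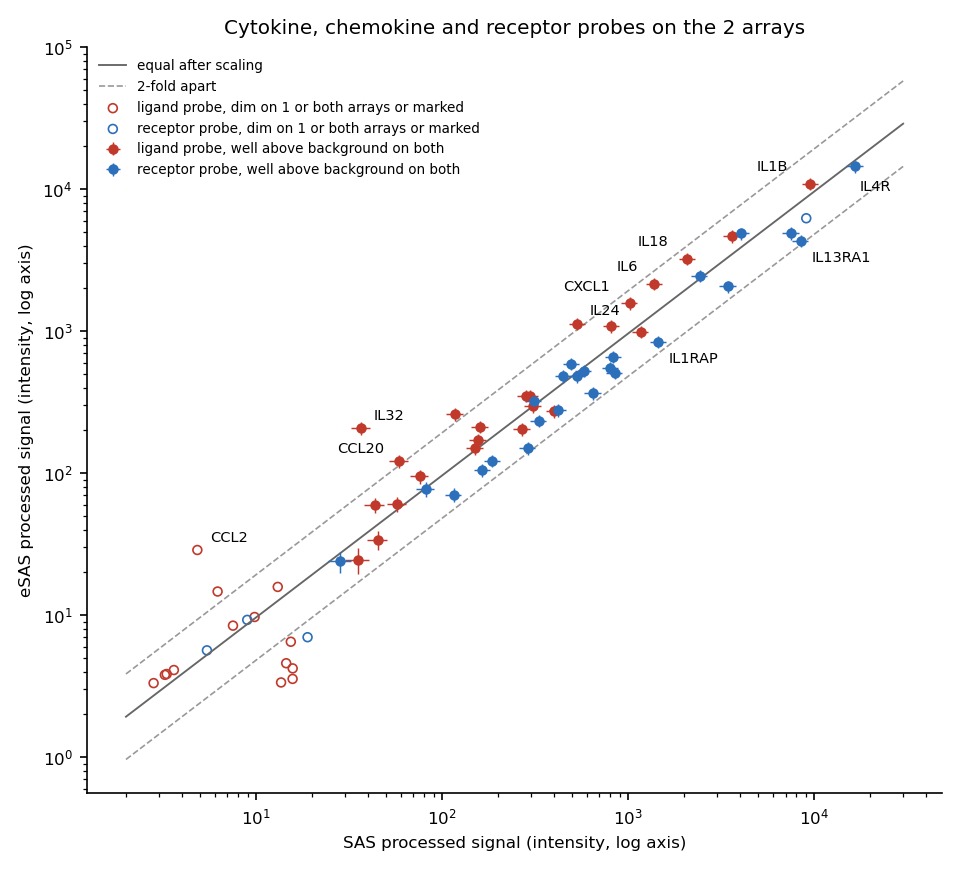
Processed signal of each member probe in SAS (x axis) and in eSAS (y axis), both log axes of intensity, with bars for the software's error. Filled points were well above background on both arrays, and the dashed lines mark 2-fold after scaling. IL32, IL24 and CCL20 lie above the upper dashed line, while no probe well above background on both arrays lies below the lower one.

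Ligands and receptors differed in the side on which most of their ratios fell. Of the 21 measured ligands, 16 had a ratio above 1, against 49.8% of all 19467 genes measured on both arrays, and 5 (IL1RN, IL11, CSF1, CSF2 and CXCL2) had one below 1, against 50.2%. Of the 14 receptors, 3 had a ratio above 1 (OSMR, IL20RB and IL17RC) and 11 below. Counting only ratios that exceeded the gene's software error, 14 ligands and 1 receptor (IL20RB) were higher, against 15.2% of all genes, and 4 ligands and 7 receptors were lower, against 17.5%. The median log2 ratio was 0.37 for the ligands and -0.22 for the receptors, beside -0.0012 for all genes. The SD over all genes was 0.37. These are counts over genes of 2 arrays, and the genes are not replicates.

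**Figure D2:**
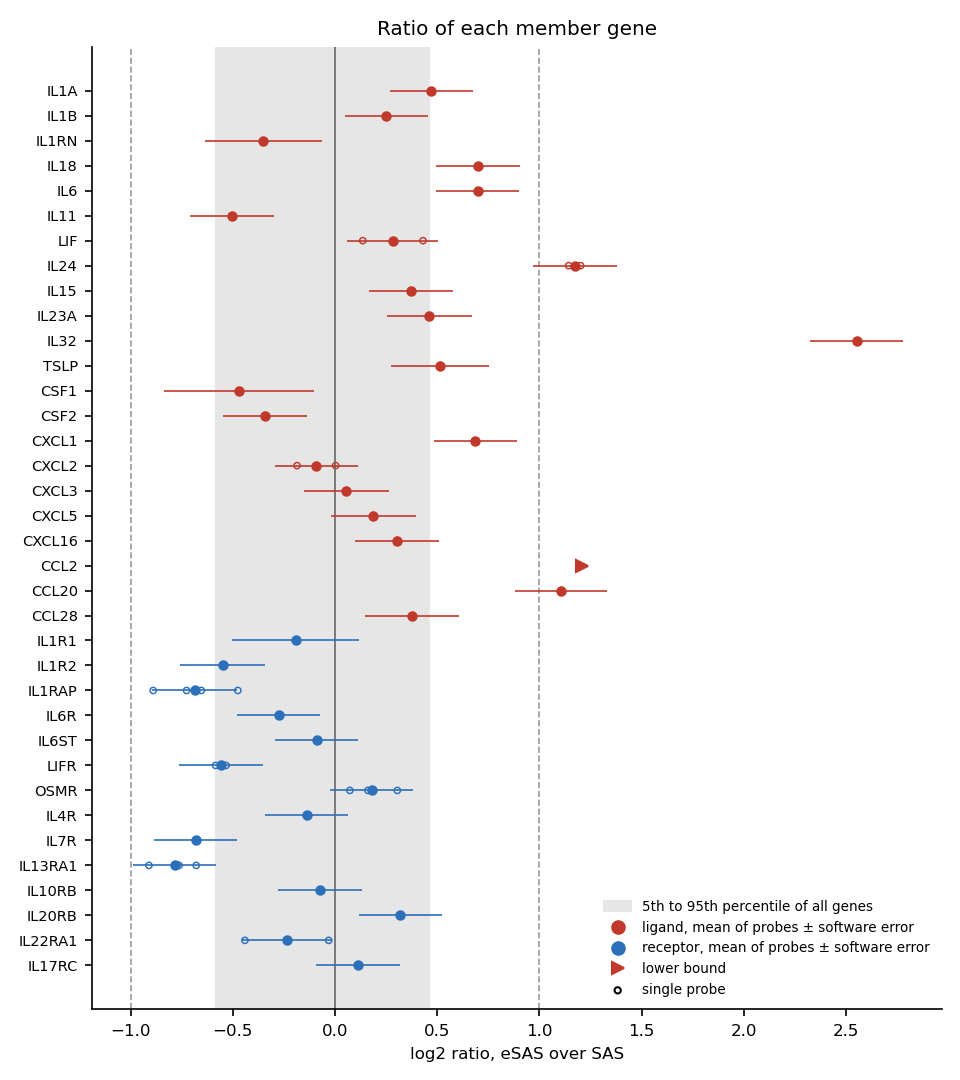
Log2 ratio of eSAS over SAS (x axis) for the 36 members with a value, ordered by role, with ligands in red and receptors in blue. Filled points are means over probes with the mean software error as bars, open points are single probes, the triangle is the lower bound of CCL2, and the grey band runs from -0.58 to 0.46, the 5th to 95th percentile of all genes.

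IL32, a pro-inflammatory cytokine, had the highest log2 ratio of the 35 members measured on both arrays; CCL2, given as a bound, cannot be ranked against it. Its single probe, on chromosome 16 of hg18 from 3059309 to 3059368, had a signal of 36.7 ± 4.48 in SAS and 207 ± 21.0 in eSAS (software error). This is a log2 ratio of 2.55 ± 0.23, or 5.87-fold higher in eSAS, and lies at the 99.9th percentile of all genes. The 8 nearest spots had log2 ratios between -0.44 and 0.45, with a median of 0.0068, so the spot stood apart from its surroundings on the array. No second probe for IL32 was available to check it.

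IL24, a cytokine of the IL-20 family, was measured by 2 probes that lie on chromosome 1 of hg18 between 205141570 and 205143653. The first had a signal of 531 ± 53.2 in SAS and 1129 ± 113 in eSAS. The second had 117 ± 12 and 260 ± 26.2. Their log2 ratios of 1.14 and 1.20 lay within 1 SD of replicate spots of each other, and their mean was 2.25-fold higher in eSAS. IL20, the neighbouring family member on chromosome 1, was not well above background on either array (13.1 and 15.8).

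IL24 signals through receptors that share the chain IL20RB, paired with IL20RA or IL22RA1. IL20RB had a signal of 4054 in SAS and 4870 in eSAS, a log2 ratio of 0.32 ± 0.20, and was the receptor with the highest ratio among the 14. IL22RA1 was measured by 2 probes with log2 ratios of -0.44 and -0.03. IL20RA, which is no member, was at 33.3 and 20.0, 1.6-fold lower. IL10RB, the shared second chain of the IL-10 receptor and related receptors, had a log2 ratio of -0.07.

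The IL-1 family ligands IL1A, IL1B and IL18 were each spotted 10 times, which allows the arrays to be compared over repeated measurements of the same RNA. IL1A, an alarmin released from damaged epithelium, had spot signals from 752 to 845 in SAS and from 1026 to 1136 in eSAS. IL1B, which is activated by caspase cleavage, ran from 8470 to 10211 and from 9995 to 11679, so that its spots overlapped between the arrays before scaling. Their log2 ratios were 0.47 and 0.25, with spot ratios from 0.39 to 0.53 and from 0.20 to 0.30. All spot ratios of both genes were above 0, and both genes were less than 1.5-fold apart. IL18, also activated by caspase cleavage, had a log2 ratio of 0.70 (1.62-fold higher in eSAS). Of its 10 spots, 9 had log2 ratios from 0.60 to 0.70, with SAS signals of 2045 to 2198. The 10th, in array row 507, had a SAS signal of 1604, an eSAS signal of 3186 and a ratio of 1.04. Without rows 450 to 510 the log2 ratio of IL18 was 0.66. IL1RN, the antagonist that blocks the IL-1 receptor, was at 45.0 ± 5.61 in SAS and 33.9 ± 5.19 in eSAS, a log2 ratio of -0.35 ± 0.28. A second IL1RN probe, at 14.5 in SAS and 4.58 in eSAS, was not well above background on either array. With no filter on dim probes the log2 ratio of IL1RN was -0.98.

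**Figure D3:**
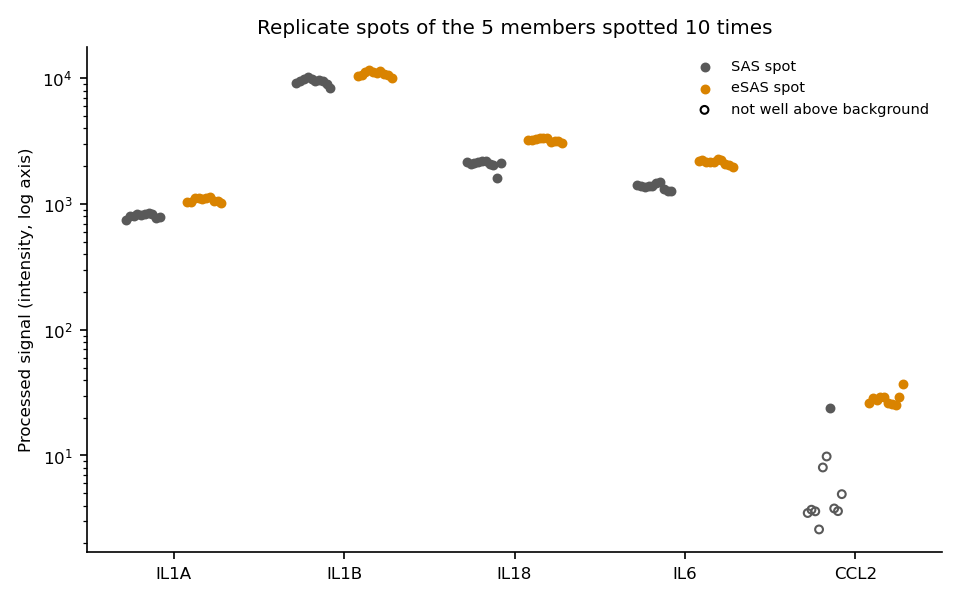
Processed signal (log axis, intensity) of each replicate spot of the 5 members spotted 10 times, SAS in grey and eSAS in orange, with open circles for spots not well above background. The spots of IL1A, IL18 and IL6 do not overlap between the arrays, and those of IL1B do. The spread of spots is technical, and how many other repeatedly spotted probes separate in this way was not counted. Of the 10 SAS spots of CCL2, 9 are open, the filled one being the spot marked as an outlier at 23.8.

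Receptors for IL-1 lay on the other side. IL1RAP, the chain that IL-1 and IL-33 receptors need in order to signal, was measured by 4 probes on chromosome 3 of hg18 between 191830388 and 191851721. Its brightest probe had a signal of 1447 ± 145 in SAS and 841 ± 84.3 in eSAS. The 4 log2 ratios were -0.89, -0.73, -0.65 and -0.48, and the gene was 1.61-fold lower in eSAS. IL1R2, a decoy receptor that binds IL-1 without signalling, had a signal of 186 in SAS and 122 in eSAS (log2 ratio -0.55 ± 0.21). IL1R1, the signalling receptor, was dim, at 28.4 and 23.9, and its log2 ratio of -0.19 was within its software error of 0.31. A second IL1R1 probe was well above background in SAS (18.9) and not in eSAS (6.99), at least 1.2-fold lower, and with no filter on dim probes the gene's log2 ratio was -0.79.

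IL6, the founding member of its family, was another interleukin at least 1.5-fold higher, and it too was spotted 10 times. Its signals ran from 1277 to 1501 in SAS and from 1989 to 2273 in eSAS. The log2 ratios of its spots lay between 0.64 and 0.74, with an SD of 0.028, and the mean of 0.70 was 1.62-fold. Its relatives LIF and IL11 differed from it in size or side. LIF was measured by 2 probes with log2 ratios of 0.43 and 0.14, and IL11 had a signal of 401 in SAS and 272 in eSAS, a log2 ratio of -0.51 ± 0.21. The LIF probe with the smaller ratio lies in row 459, and LIF was 0.43 without rows 450 to 510.

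The 4 member receptor chains of this family had log2 ratios from -0.56 to 0.18, and IL11RA, the specific chain for IL-11 and no member, had 0.28. LIFR, a receptor chain that LIF binds, was lower on each of its 3 probes, with log2 ratios of -0.59, -0.56 and -0.53. Its brightest probe had a signal of 7483 ± 748 in SAS and 4903 ± 490 in eSAS. OSMR, the oncostatin M receptor, whose gene lies near LIFR on chromosome 5, was above 1 on each of 3 probes, with log2 ratios from 0.07 to 0.30. Its gene ratio of 0.18 was within its software error of 0.20. IL6R, the IL-6 binding chain, had a log2 ratio of -0.28, and IL6ST, the signalling chain used by the whole family, one of -0.09, which is within its software error of 0.20.

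IL13RA1, which forms a receptor for IL-4 and IL-13 with IL4R, had the lowest ratio of the 36 members with a value. CXCL14 and CCL26, the 2 members at least 2-fold lower with no filter on dim probes, have none. Its 3 probes lie on chromosome X of hg18 between 117776192 and 117812493. Their signals were 8454 ± 845, 3431 ± 343 and 646 ± 64.7 in SAS and 4328 ± 433, 2063 ± 206 and 366 ± 36.8 in eSAS. Each probe was lower, with log2 ratios of -0.91, -0.68 and -0.76, and the gene was 1.72-fold lower in eSAS. The spots around these probes had median log2 ratios from -0.05 to 0.06. IL4R differed little, with 16528 in SAS and 14452 in eSAS and a log2 ratio of -0.14 ± 0.20.

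IL7R, which serves IL-7 and, with CRLF2, also TSLP, had a probe at 847 ± 84.7 in SAS and 508 ± 50.9 in eSAS, 1.61-fold lower (log2 ratio -0.68 ± 0.20). This probe lies in row 471, where its 8 nearest spots had a median log2 ratio of 0.26, on the other side of 0. A second IL7R probe, left out because the software marked its SAS spot as non-uniform, had 9048 and 6234, a log2 ratio of -0.48, and with it the gene's ratio was -0.58. TSLP, an epithelial cytokine, had a signal of 43.3 in SAS and 59.5 in eSAS, a log2 ratio of 0.51 ± 0.24, and CRLF2 was not well above background on either array. The other interleukins were IL15, a growth factor of lymphocytes, at a log2 ratio of 0.37 ± 0.21, and IL23A, a subunit of IL-23, at 0.46 ± 0.21. IL17RC, a chain of the IL-17 receptor, had a log2 ratio of 0.11, within its software error.

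The neutrophil-attracting CXC chemokines had unequal ratios. CXCL1 had a signal of 1017 ± 102 in SAS and 1576 ± 158 in eSAS, a log2 ratio of 0.69 ± 0.20 (1.61-fold higher). CXCL2 was measured by 2 probes with log2 ratios of -0.19 and 0.0027, and it was the single gene of 8 with several measured probes whose probes fell on both sides of 1. CXCL3 had 149.6 on both arrays (log2 ratio 0.05 ± 0.21), and CXCL5 had 155 and 170 (0.19 ± 0.21). All 4 carry GGGAATTTCC, which starts 79 bases before the start of CXCL1, 78 before CXCL2, 79 before CXCL3 and 91 before CXCL5, as shown in the sequences above. CXCL1, CXCL2 and CXCL3 are near-identical paralogs, and whether their probes bind each other's transcripts was not tested. CXCL6 was not well above background on either array. IL8, the gene now named CXCL8, had a probe in the chromosome 4 cluster with 6.22 in SAS and 14.7 in eSAS, not well above background on either. The other probe listed under IL8 is placed by the array on chromosome 17 of hg18 from 39682083 to 39682142, outside that cluster, and was also not well above background.

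CCL20, which attracts cells that carry the receptor CCR6, was at 58.9 ± 6.88 in SAS and 122 ± 12.9 in eSAS. Its log2 ratio was 1.11 ± 0.23, or 2.15-fold higher, from a single probe on chromosome 2 of hg18 between 228389344 and 228390080. CCL2, a monocyte attractant, was spotted 10 times, and the software marked 1 of its spots as an outlier. Of the 9 spots used, 0 were well above background in SAS, where the highest signal was 9.82, and 9 were in eSAS, where the lowest was 25.4. Set against the lowest signal well above background in SAS, 12.8, CCL2 was at least 2.31-fold higher in eSAS. The left-out spot had 23.8 in SAS and 25.9 in eSAS, unlike the others. Both calls depended on the background correction. Without it, the log2 ratio was 0.72 for CCL20 and 0.39 for CCL2, while IL32 was at 1.76 and IL24 at 1.02.

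The remaining chemokines were closer to 1. CCL28, a mucosal epithelial chemokine, had a log2 ratio of 0.38 ± 0.23, and CXCL16, a membrane-bound chemokine that can be shed, one of 0.30 ± 0.20. CXCL14 had a signal of 15.7 in SAS, well above background, and 3.56 in eSAS, not well above background, but after scaling the difference could not be given as a fold because the bound was under 1. CCL5 and CCL26 were not well above background on either array. The colony-stimulating factors, which act on myeloid cells, were both slightly lower. CSF2 had 269 in SAS and 204 in eSAS (log2 ratio -0.34 ± 0.21), CSF1 had 35.4 and 24.6 (-0.47 ± 0.37), and CSF3 was not well above background on either array. A second CSF1 probe was at 15.4 in SAS, well above background, and 6.49 in eSAS, not well above it, and with no filter the gene's log2 ratio was -0.83.

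The depth of a microarray value is its brightness, and the members were unequally well measured. Over all probes measured on both arrays, the SD of the log2 ratio was 0.50 for signals under 100, 0.37 for signals from 100 to 1000 and 0.23 for brighter ones. At least 2-fold apart were 5.73%, 1.92% and 0.525% of the probes in these classes, and 2 of 10, 2 of 25 and 0 of 13 member probes. All 4 of these member probes belong to the genes named above (IL32 and CCL20 singly, IL24 by both). IL6 and IL18, with ratios nearer to 1, rest on repeated spots with signals above 1000. IL13RA1 and LIFR, also nearer to 1, each had a brightest probe above 1000 on both arrays. Each also had dimmer probes, for LIFR down to 165 in SAS and 106 in eSAS.

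Other genes of the same pathways were taken as 6 lists of 108 genes in all, chosen by function but with earlier results of these data known. Of 77 with a value, 6 were at least 2-fold higher in eSAS and 0 lower, beside 2.02% and 2.16% of all genes, and their median log2 ratio was 0.07. All 6 calls ended without background correction, and likewise under normexp fitted without the spots of marked local background, where 0 list genes were 2-fold apart. In the list of IL-1 and Toll-like receptor signalling, with 12 of 14 measured and a median of 0.14, TLR2, a receptor for bacterial lipopeptides, was 3.46-fold higher, at 27.4 in SAS and 91.3 in eSAS. IRAK1, a kinase of that pathway, was at 4957 and 3169, 1.51-fold lower. Among 16 NF-kappa-B subunits, inhibitors and kinases (median 0.08), the kinase IKBKE was 2.23-fold higher, at 27.3 and 58.7, while NFKBIA, the inhibitor that NF-kappa-B itself switches on, was at 11070 and 10295, a log2 ratio of -0.05. The 20 JAK-STAT genes had a median of -0.04 and 0 genes at least 2-fold apart, with STAT6, the factor that acts below IL4R and IL13RA1, at 0.21.

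Of 25 other cytokine receptors, 14 were well above background, with a median of 0.05 over the 13 measured on both arrays. IL18R1, the IL-18 receptor, had 7.93 in SAS, not well above background, and 31.4 in eSAS, at least 2.54-fold higher. IL1RL1, the receptor for IL-33, was at 86.1 and 209, 2.52-fold higher. Of 18 chemokine receptors, 6 had a value, and 2 atypical ones were at least 2-fold higher. CCRL2 had log2 ratios of 0.76 and 1.28 on its 2 probes (2.03-fold), and CCRL1 was at 13.7 and 36.7 (2.78-fold), close to background. CCR6, the receptor for CCL20, was not well above background on either array. Among 9 genes for the processing and shedding of cytokines, with a median of 0.19, 0 were 2-fold apart, and CASP4, an inflammatory caspase, was at 12157 and 19598, with both probes near 0.74 on the log2 scale. CASP1, which cleaves IL1B and IL18 into their active forms, was at 721 and 1176 (1.70-fold higher) and CASP5 at 3428 and 5728 (1.74-fold higher). In this list 6 genes had a ratio above 1 and 3 had one below. The lower ones were PYCARD, at 4299 and 3126 (log2 ratio -0.41), NLRP1 (-0.25) and ADAM10 (-0.03). CASP1, CASP5, PYCARD, NLRP1, ADAM10, IL20RA, IL11RA, CRLF2, CCR6 and the markers CDH1, COL1A1, CDH5 and VWF were named after their values had been seen.

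**Figure D4:**
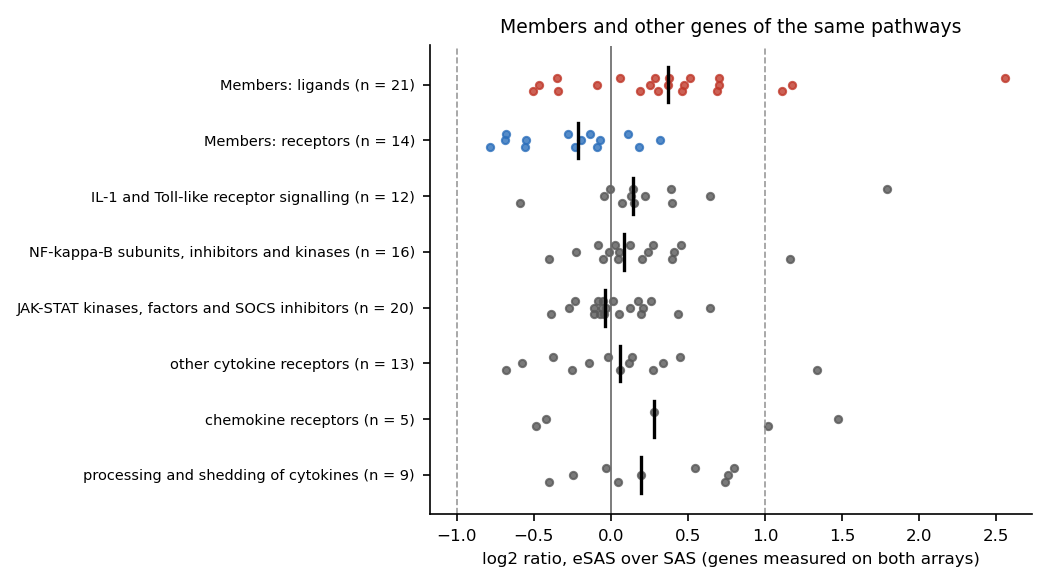
Log2 ratio of eSAS over SAS (x axis) for the genes measured on both arrays, 1 point a gene, in the member ligands, the member receptors and the 6 lists of other pathway genes, with the median of each as a vertical bar. The ligand median is at 0.37 and the receptor median at -0.22, and the 6 list medians lie between -0.04 and 0.28.

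The medians were recomputed under 16 other ways of processing the same files. Under 14 of them the ligand median stayed between 0.25 and 0.43 and the receptor median between -0.27 and -0.14. The exceptions were the normexp corrections fitted on all spots, which moved the median of all genes to 0.68 and the ligand and receptor medians to 1.25 and 0.37 with mean pixels. Relative to all genes the ligands were then at 0.57 and the receptors at -0.31. Most receptors with a ratio below 1 turned. IL1R1, IL1R2, IL1RAP (0.63), IL6R, IL6ST, LIFR, IL7R (0.07), IL10RB and IL22RA1 then had log2 ratios above 0. IL13RA1 (-0.68) and IL4R (-0.67) stayed below 0, and IL20RB turned the other way (-0.11). IL18, IL6 and CXCL1 were then at 0.34, 0.44 and 0.49, under 1.5-fold. The fitted background of the eSAS array was -773 in that fit and 6.02 when the 26 spots with a marked local background were left out.

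**Figure D5:**
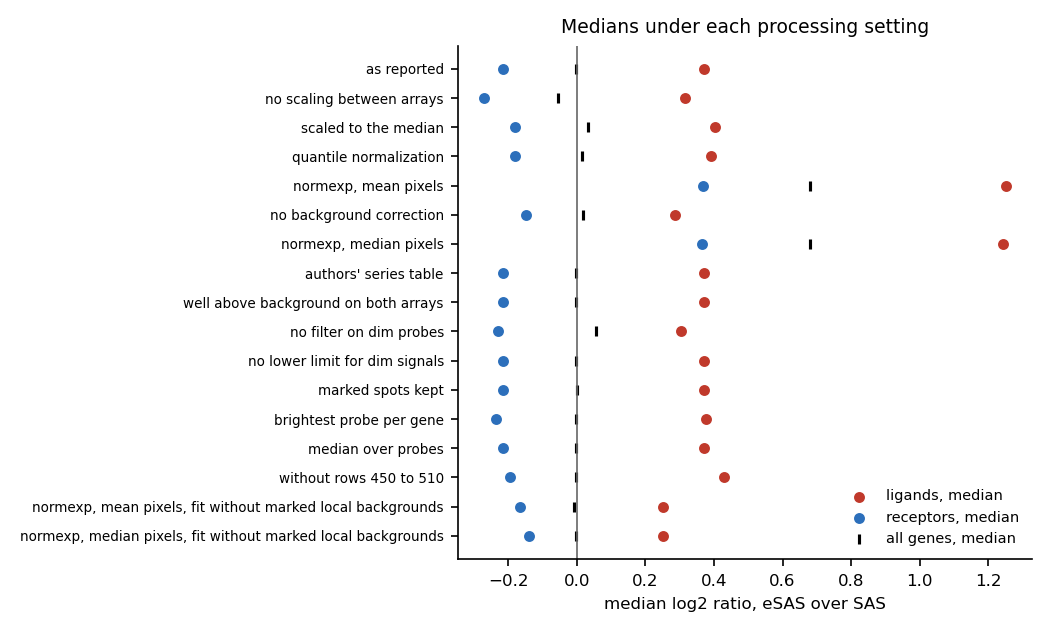
Median log2 ratio of eSAS over SAS (x axis) of the ligands (red), the receptors (blue) and all genes (black bars) under each processing setting (y axis). The ligand median lies above and the receptor median below that of all genes in every row, and all 3 shift upward in the 2 rows with normexp fitted on all spots.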

How the data were processed

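Each of the 2 cell populations, SAS and eSAS, had its RNA measured with 1 microarray. The authors deposited tables from the scanner software (Agilent Feature Extraction 10.7.3.1, per the submitters' processing notes). Its processed signal is a linear intensity, corrected for background and spatial trend, with no scaling between arrays, and the authors' series table equals it for all 45015 spots of both arrays. The scaling behind the study's own comparison is not given in the sources used here.

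The log2 of the processed signal minus each array's 75th percentile over non-control spots was used. Spots that the software marked non-uniform or population outlier on either array were left out, and the spots of a probe were averaged. A probe was taken as above background where the software rated more than 50% of its spots so. A gene's ratio is the mean over its probes well above background on both arrays. Otherwise a lower bound was taken from its brightest probe, against the higher of its own signal on the dim array and the lowest signal well above background there (12.8 for SAS and 15.2 for eSAS). The errors printed are those of the software's error model. Of 66 member probes, 59 matched a RefSeq accession, each with the expected gene, and the others kept the array's name. The array gives probe positions in hg18, and start regions are from RefSeq on GRCh38.p14.

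With 1 array per condition no test was made. Having 1 array each limits the precision throughout. Members and gene lists were chosen with earlier results of these data known. Both arrays' values are given for members at least 1.5-fold apart or well above background on 1 array, and list genes are named when at least 2-fold apart or the brightest of their list. Some single results that meet this rule are not reported here. The alternatives were other scalings, normexp (offset 50), background correction omitted, other filters, marked spots kept, other summaries over probes and the omission of rows 450 to 510. Python 3.11.15 and R 4.3.3 with limma 3.58.1 were used, and the counting was tested on simulated data.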

Additional observations from a re-analysis of the deposited data

How the results depend on the processing

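IL32, IL24 and CCL20 kept their side under the 16 alternatives, and CCL2 under the 15 that gave it a value; it has none where both arrays must be well above background, which left 3 members at least 2-fold higher. Normexp fitted on all spots gave 19 members at least 2-fold higher with mean pixels and 18 with median pixels (4 as reported), a member median of 1.01 and 0.99 (0.11 as reported) and 42 list genes at least 2-fold apart in both cases (6 as reported), while 20 of 36 members kept the sign of their ratio. Without background correction, 2 members were at least 2-fold higher, and so they were under normexp fitted without the spots of marked local background, with mean and with median pixels, a setting chosen after seeing the data. The list genes 2-fold apart were 0 under each of these 3 settings. With no filter on dim probes 2 members were at least 2-fold lower, and with no lower limit for dim signals 1 was (0 as reported). What caused these changes was not tested. Scaling to the median, quantile normalization, no scaling and the median over probes left all 36 members within the SD of replicate spots. The series table did so by holding the same values. No scaling moved the median of all genes to -0.06. Signal over background limits the dim members, above all CCL2, CCL20, IL32, IL1R1 and CSF1. A block for the slide was not run, as both arrays share it. No paired analysis was possible because each population had 1 array.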
